A study of Mus musculus with 9 samples.

Results

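Matrix metalloproteinases (MMPs) and the ADAM and ADAMTS proteases were followed across glioma tissue, glioma cells and normal mouse brain cells. Their genes were taken as all those whose array name is Mmp, Adam or Adamts followed by a number. This gave 66 genes, 21 of them Mmp, 26 Adam and 19 Adamts, on 102 of the 55681 probes and of 34733 gene names on the array. RNA was hybridised in a single colour to an Agilent mouse expression array, with 9 arrays in 4 groups. The EZH2-KO tissue (3 arrays) was brain tumour tissue from mice of the MADM background with EZH2 knocked out. MADM, mosaic analysis with double markers, is a genetic method that marks sibling cells of different genotype by colour, and EZH2 is the histone methyltransferase of the Polycomb repressive complex PRC2. The glioma cells (2 arrays) came from a brain tumour of the same background, and their labels give no genotype. Neural stem cells (2 arrays) and astrocytes (2 arrays) came from the brain of wild-type C57BL/6J mice. The labels name neither the alleles that start the tumours nor the promoter that drives recombination, and do not say whether arrays of a group came from separate animals or cultures. For that reason a p-value here speaks to the scatter among the arrays at hand, and that scatter could be technical.

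MMPs are zinc endopeptidases that are made as inactive precursors and cut extracellular matrix proteins, growth factors and other proteases. Some are secreted and the membrane-type MMPs are held at the cell surface, and the TIMP proteins inhibit them. ADAMs are membrane-anchored and release the outer parts of surface proteins such as Notch receptors and growth factor precursors, although several ADAMs of the nervous system lack an active catalytic site and act as receptors. ADAMTS proteases are secreted, and several of them cut the lecticans, the proteoglycans (brevican, neurocan, versican, aggrecan) that make up much of the brain's matrix, while others process procollagens. In gliomas these families are studied for their part in invasion.

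Every value below is the log2 processed signal of a probe minus the 75th percentile of its own array, so that 0 is the level of the 75th percentile. Levels of different probes were not compared. A signal counts as measured where the scanner software marked its spot as well above background, which held for 60.1% to 65.7% of the spots of an array, and no spot was saturated. The 3 tissue arrays shared a slide and a scan and the 6 cell arrays another, so that slide and tissue cannot be told apart. Marker lists checked the labels. Oligodendrocyte precursor markers averaged 5.02 to 5.73 in EZH2-KO tissue and 5.27 to 5.67 in glioma cells. They averaged 3.78 to 4.75 in neural stem cells and -1.47 to -0.87 in astrocytes. Neural stem cell markers averaged 4.96 to 5.07 in neural stem cells and 3.41 to 3.65 in EZH2-KO tissue. In glioma cells they averaged 1.65 to 4.1 and in astrocytes 1.92 to 3.41. Astrocyte markers averaged 2.23 to 3.41 in EZH2-KO tissue, -1.35 to -1.09 in glioma cells, 0.58 to 3.78 in neural stem cells and 3.8 to 5.29 in astrocytes. Microglia and macrophage markers averaged 2.8 to 3.8 in EZH2-KO tissue, -3.38 to -2.99 in glioma cells, -1.94 to -0.75 in neural stem cells and 2.7 to 3.22 in astrocytes, where all 10 markers were well above background on both arrays. Ezh2 lay at 1.48 to 1.91 in EZH2-KO tissue and 3.03 to 3.24 in glioma cells, against 2.14 to 3.38 in neural stem cells and -0.58 to 0.19 in astrocytes. Where its probe lies relative to the deleted part is not given in the sources used here. In bulk RNA, fewer cells of a type and less RNA per cell cannot be told apart.

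Of the 66 genes, each taken by its brightest usable probe, 28 were well above background on all 9 arrays, 26 on some and 12 on none. The ADAMs were the most widely measured, with 14 of 26 on all arrays, against 6 of 21 Mmp and 8 of 19 Adamts genes. No Mmp7, Mmp8, Mmp20, Mmp21, Mmp25, Mmp27 or Mmp28 signal was well above background on any array. Mmp7 is matrilysin, Mmp8 the neutrophil collagenase and Mmp20 the tooth enamel protease enamelysin. Mmp9, the larger gelatinase, was measured on 1 array, an astrocyte array at -4.82, and its other 8 values lay between -7.62 and -5.16. A gene was tested only where all arrays of some group measured a probe of it, which left 44 members in the fit of 9 arrays and 42 in the fit of the 6 cell arrays, and 22 members in neither. Those 22 were Adam2, Adam3, Adam7, Adam24, Adam28, Adam29, Adam30, Adam34, Adam39, Adamts12, Adamts13, Adamts20 and 10 Mmp genes, among them the collagenase Mmp13 and the stromelysin Mmp10.

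**Figure D1:**
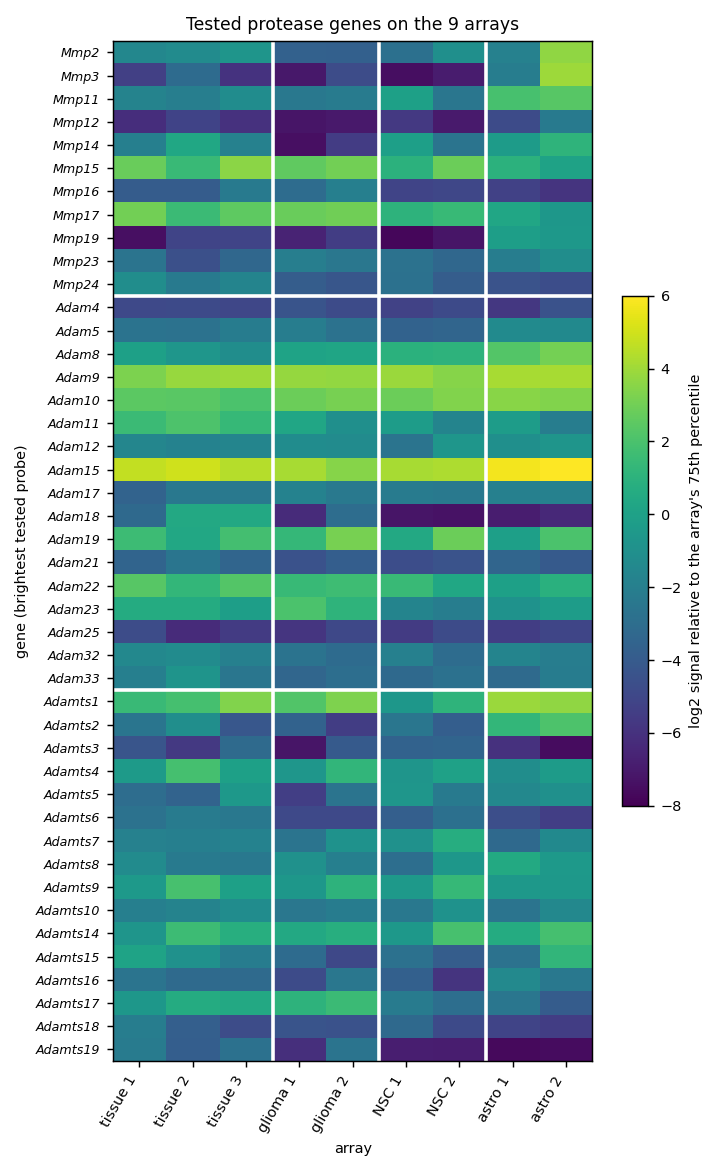
Levels of the 44 tested members (rows) on the 9 arrays (columns), as log2 signal relative to the 75th percentile of each array, with white lines between groups and families. Adam9, Adam10 and Adam15 are measured on all arrays, and Mmp3 and Mmp2 are brightest on astrocyte array 2.

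Among the secreted Mmp genes, 8 lie side by side on chromosome 9 over 427 kb (chr9:7272514-7699585, GRCm38.p6, RefSeq), in the order Mmp13, Mmp12, Mmp3, Mmp10, Mmp8, Mmp27, Mmp20, Mmp7. Promoters of several such genes are textbook targets of the transcription factor AP-1, so the 100 bases before each annotated start are shown, 5′ to 3′ on the plus strand, with the letters TGANTCA in capitals where they occur. This motif is its own reverse complement and was therefore searched on both strands at once. For Mmp12 and Mmp7, which have 2 annotated windows each, the window with the motif is shown.
Mmp13 (chr9:7272414-7272513): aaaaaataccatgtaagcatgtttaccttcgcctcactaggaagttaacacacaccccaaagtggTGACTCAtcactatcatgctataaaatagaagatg
Mmp12 (chr9:7347274-7347373): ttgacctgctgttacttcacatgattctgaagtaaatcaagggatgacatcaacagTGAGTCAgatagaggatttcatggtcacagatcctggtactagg
Mmp3 (chr9:7445722-7445821): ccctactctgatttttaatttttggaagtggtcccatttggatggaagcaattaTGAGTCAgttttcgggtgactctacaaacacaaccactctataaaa
Mmp10 (chr9:7502242-7502341): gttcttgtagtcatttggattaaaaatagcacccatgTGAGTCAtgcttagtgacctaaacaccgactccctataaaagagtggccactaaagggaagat
Mmp8 (chr9:7558329-7558428): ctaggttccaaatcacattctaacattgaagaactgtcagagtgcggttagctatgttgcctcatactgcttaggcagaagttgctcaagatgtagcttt
Mmp27 (chr9:7571296-7571395): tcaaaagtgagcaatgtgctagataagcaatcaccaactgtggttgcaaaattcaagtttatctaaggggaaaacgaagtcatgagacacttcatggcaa
Mmp20 (chr9:7628131-7628230): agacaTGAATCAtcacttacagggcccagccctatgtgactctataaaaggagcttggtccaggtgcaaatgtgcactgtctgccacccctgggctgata
Mmp7 (chr9:7691990-7692089): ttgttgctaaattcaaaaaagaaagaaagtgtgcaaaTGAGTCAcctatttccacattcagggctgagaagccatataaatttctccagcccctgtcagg

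In the full windows of 300 bases (250 before and 50 after the start), 6 of these 8 genes held the motif and Mmp8 and Mmp27 did not. RefSeq windows matched 37 of the 66 members, with 42 windows, of which 9 (21.4%) held it, against 2565 of all 32851 windows (7.81%). Outside the cluster it occurred in windows of Adam19, Adam25 and Adam29, and in none of the 10 Adamts windows. A match is a description of these letters and not a binding site.

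Signal from this cluster came mainly from the astrocyte arrays, and from 1 of them in particular. Mmp3, stromelysin-1, gave -5.33, -3.11 and -5.97 in EZH2-KO tissue, -7.11 and -4.73 in glioma cells, -7.47 and -6.94 in neural stem cells, and -2.07 and 3.96 in astrocytes. Mmp12, macrophage elastase, gave -6.16, -5.16 and -6.02 in tissue, -7.21 and -7.04 in glioma cells, -5.70 and -7.00 in neural stem cells, and -4.82 and -2.26 in astrocytes. For both genes the 2 astrocyte arrays lay above all the others and array 2 was the brighter. Mmp13, a collagenase, was measured on astrocyte array 2 alone, at -1.59, and lay between -7.54 and -5.43 on the other 8 arrays. Mmp10, stromelysin-2, was measured on astrocyte array 2 at -2.94 and on glioma cell array 1 at -3.28, with the other 7 arrays between -7.63 and -6.46. That glioma cell array also differed from its replicate in Sox2 (-7.55, against 2.28 on array 2) and in Acan (4.72, against -2.11).

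Mmp2, the smaller gelatinase, lies on another chromosome and had the same high array. It gave -1.52, -1.27 and -0.71 in tissue, -3.64 and -3.73 in glioma cells, -2.83 and -1.03 in neural stem cells, and -1.85 and 3.68 in astrocytes. The aggrecanase Adamts15 gave 0.11, -0.93 and -2.14 in tissue, -3.1 and -4.97 in glioma cells, -2.77 and -3.89 in neural stem cells, and -2.71 and 1.21 in astrocytes. The 7 fibroblast and meninges markers averaged 4.90 on astrocyte array 2 and 0.58 on array 1. The collagen gene Col1a2 gave 6.94 on array 2 and -0.78 on array 1. The gap was smaller in Col1a1 (5.82 on array 2 and 4.69 on array 1) and in Ogn (4.35 and 2.75). Pdgfra, which is also among the oligodendrocyte precursor markers, was the only gene of the list that was lower on array 2. The 8 endothelial and pericyte markers averaged -2.26 on array 2 and -4.06 on array 1, with the widest gap in Cdh5 (2.73 and -6.48). Cldn5, Rgs5 and Kcnj8 were well above background on neither of these arrays. The part of such cells in these levels was not tested. None of the 4 tested proteases Mmp2, Adamts15, Mmp3 and Mmp12 passed the test in glioma cells against astrocytes. The log2 difference was -4.59 for Mmp2 (limma adjusted p = 0.13) and -3.29 for Adamts15 (limma adjusted p = 0.152). Mmp3 was at least 62.1-fold lower, with means of -5.92 and 0.95 (limma adjusted p = 0.0696), and Mmp12 at least 3-fold, with means of -7.12 and -3.54 (limma adjusted p = 0.0518), since neither glioma cell array measured them. These bounds rested on the brighter astrocyte array, and without array 2 they were 7.69-fold for Mmp3 and 1.24-fold for Mmp12. With astrocyte array 1 left out, the fitted differences of Mmp2 (-7.36, limma adjusted p = 0.0228), Mmp3 (-9.89, limma adjusted p = 0.0219) and Mmp12 (-4.86, limma adjusted p = 0.0285) did pass, the remaining astrocyte array being assumed to vary like the other groups. With array 2 left out instead, Mmp2 (-1.83, limma adjusted p = 0.232), Mmp3 (-3.86, limma adjusted p = 0.112) and Mmp12 (-2.31, limma adjusted p = 0.113) did not pass.

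**Figure D2:**
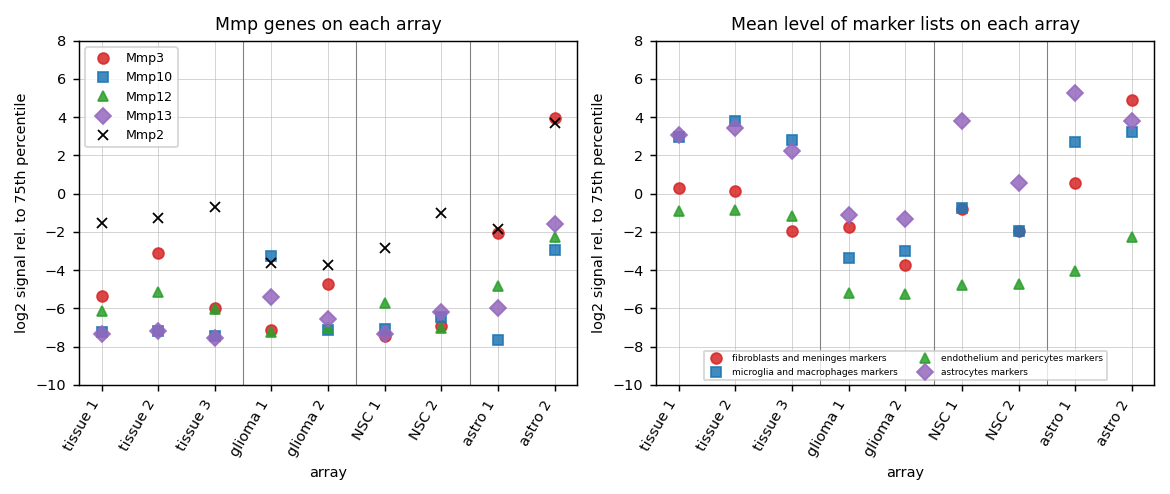
Levels of 4 chromosome 9 Mmp genes and Mmp2 (left) and mean levels of 4 cell type marker lists (right) on each of the 9 arrays, both as log2 signal relative to the 75th percentile; points are arrays. All 5 Mmp genes are highest on astrocyte array 2, where the fibroblast and meninges markers average 4.90.

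The comparison of glioma cells with astrocytes sets the tumour cells against normal brain cells labelled as astrocytes. Those arrays also held microglia and macrophage markers (2.7 to 3.22) and Col1a1 (4.69 and 5.82). The part of such cells in the differences below was not tested. The membrane-type genes Mmp16 and Mmp17 and the genes Adam23, Adamts4 and Adamts17 were higher in glioma cells, by 2.13 to 4.51 on the log2 scale. Mmp14, Mmp19, Mmp11, Adamts2, Adam8 and Adam15 were lower, by 2.17 to 6.87. A call needs an adjusted p under 0.05 over all genes tested and at least a 2-fold difference. The 5 of 42 members called higher made 11.9%, beside 9% of all genes, and the 6 called lower made 14.3%, beside 9.84%. These shares lie near those of the whole array. The median log2 difference was -0.41 over the members and 0.15 over all genes, and 29 of 42 members did not overlap between the groups, beside 69.2% of all genes, of which 18.8% were called in either direction.

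Mmp14 encodes MT1-MMP, the membrane-anchored collagenase that also activates the Mmp2 precursor. Its 60-base probe lies at chr14:55058775-55058834 (mm9, plus strand) and reads
Mmp14 probe: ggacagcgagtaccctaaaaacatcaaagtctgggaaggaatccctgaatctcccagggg
The values were -1.97, 0.33 and -1.87 in EZH2-KO tissue, -7.43 and -5.53 in glioma cells, -0.08 and -2.64 in neural stem cells, and -0.34 and 1.13 in astrocytes. Glioma cells stood below every other array and were not well above background on either array. Against astrocytes Mmp14 fell by 6.87 (SE 1.11, limma adjusted p = 0.0165), with means of -6.48 and 0.39, which is at least 45.9-fold lower. Such a bound sets the mean of the brighter group against the lowest signal that counted as measured on the dim arrays, or the probe's own signal there if higher. With an array left out it lay between 27.5-fold and 76.5-fold. The call was lost with glioma cell array 1 or either astrocyte array left out, with log2 differences between -7.82 and -5.92 over the arrays left out and a highest limma adjusted p of 0.077.

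Mmp19, a secreted MMP of broad matrix specificity, was measured almost only in astrocytes. It gave -7.41, -5.15 and -5.13 in tissue, -6.61 and -5.45 in glioma cells, -7.76 and -7.22 in neural stem cells, and -0.13 and -0.52 in astrocytes. Of the 7 arrays outside the astrocytes, only 1 tissue array was well above background. The 2 astrocyte arrays lay within 0.39 of each other here, where those of Mmp3 lay 6.03 apart. The fall in glioma cells was -5.71 (SE 0.48, limma adjusted p = 0.00362), at least 27.8-fold, with means of -6.03 and -0.33. This call was kept under all 13 alternatives run, where the highest limma adjusted p was 0.0234. Mmp19 entered the fits through the astrocytes alone, so that its high group was tied to the filter.

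Mmp11, stromelysin-3, known from the stroma of carcinomas, gave -1.76, -2.02 and -1.19 in tissue, -2.40 and -2.15 in glioma cells, -0.03 and -2.48 in neural stem cells, and 1.92 and 2.38 in astrocytes. Both astrocyte arrays lay above all the others. The difference was -4.43 on this probe (SE 0.81, limma adjusted p = 0.0227) and -4.41 on the second probe of the gene. It missed the threshold when any array of these 2 groups was left out, with differences between -4.66 and -4.20 and a highest limma adjusted p of 0.0984.

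Mmp16 and Mmp17 ran the other way. Mmp16 encodes MT3-MMP, a transmembrane protease described in the nervous system. Its 60-base probe is placed at chr4:18020570-18037588 (mm9, plus strand), a genomic span longer than the probe, and reads
Mmp16 probe: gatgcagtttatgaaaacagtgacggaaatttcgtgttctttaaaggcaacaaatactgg
Values were -3.91, -3.90 and -2.25 in tissue, -3.03 and -1.95 in glioma cells, -5.11 and -5.04 in neural stem cells, and -5.31 and -5.90 in astrocytes. The tumour groups lay above both normal groups on every array. Mmp16 entered the fit of the cell arrays through the glioma cells alone, so that its high group there was tied to the filter. Mmp16 was 3.11 higher in glioma cells than in astrocytes (SE 0.45, limma adjusted p = 0.0126), at least 7.81-fold, since neither astrocyte array was well above background. Without astrocyte array 2 the difference was 2.82 and the limma adjusted p 0.0626.

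Mmp17 encodes MT4-MMP, which is held in the membrane by a glycolipid anchor. Its values were 3.02, 1.53 and 2.54 in tissue, 2.78 and 2.98 in glioma cells, 1.07 and 1.45 in neural stem cells, and 0.29 and -0.58 in astrocytes. Tumour tissue and glioma cells shared the higher range and astrocytes had the lowest. The difference of 3.02 between glioma cells and astrocytes (SE 0.39, limma adjusted p = 0.00939), 8.13-fold, was kept under all 14 alternatives run. Mmp15, the transmembrane MT2-MMP, gave 2.78, 1.49 and 3.55 in tissue, 2.6 and 3.03 in glioma cells, 0.99 and 2.86 in neural stem cells, and 1.0 and 0.05 in astrocytes. Glioma cells lay 2.29 above astrocytes without passing (limma adjusted p = 0.0779). Mmp23, whose protease lacks the usual cysteine switch, gave -2.62, -4.57 and -3.34 in tissue, -1.99 and -2.43 in glioma cells, -2.70 and -3.33 in neural stem cells, and -2.08 and -1.12 in astrocytes. Its nearest difference to a call was -1.41 in neural stem cells against astrocytes (limma adjusted p = 0.0926).

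Of 16 ADAM genes tested in this comparison, 1 was called higher and 2 lower. Adam23 encodes a catalytically inactive ADAM of neural cells that binds the secreted protein LGI1. It gave 0.59, 0.59 and -0.17 in tissue, 2.05 and 1.1 in glioma cells, -1.70 and -2.08 in neural stem cells, and -0.86 and -0.25 in astrocytes. Glioma cells were above all other arrays. The difference from astrocytes was 2.13 (SE 0.44, limma adjusted p = 0.0318), 4.37-fold, on this probe, and 1.41 and 0.21 on the other 2 tested probes of the gene. The call was lost with the mean of the probes, with the deposited table and in 5 of 6 fits that left out an array, all but that without glioma cell array 2, with differences between 1.65 and 2.60 and a limma adjusted p of up to 0.131.

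Adam8, a sheddase of leukocytes that is also expressed by microglia, gave -0.07, -0.65 and -1.15 in tissue, 0.12 and 0.24 in glioma cells, 0.94 and 1.04 in neural stem cells, and 2.25 and 3.1 in astrocytes. Adam8 fell by 2.5 in glioma cells against astrocytes (SE 0.36, limma adjusted p = 0.0125), and missed the threshold without glioma cell array 1 or 2 (highest limma adjusted p = 0.0567). Microglia markers were high in the astrocyte arrays and as high in the tissue, where Adam8 was lowest, and their part in the Adam8 level was not tested. Adam15, the ADAM whose disintegrin domain carries an integrin-binding RGD motif in humans, gave 4.74, 5.0 and 4.46 in tissue, 4.17 and 3.45 in glioma cells, 4.15 and 4.25 in neural stem cells, and 5.73 and 6.25 in astrocytes. Its difference was -2.17 (SE 0.37, limma adjusted p = 0.0192), and -2.53 to -1.81 with arrays left out, where the call was lost without glioma cell array 2 or either astrocyte array (highest limma adjusted p = 0.0856).

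The principal sheddases did not pass. Adam10, which cuts Notch and the amyloid precursor protein, gave 2.46, 2.42 and 2.03 in tissue, 2.83 and 3.11 in glioma cells, 2.86 and 3.36 in neural stem cells, and 3.49 and 3.36 in astrocytes. Adam17, the enzyme that releases tumour necrosis factor and ErbB ligands, gave -3.55, -2.40 and -2.34 in tissue, -1.82 and -2.33 in glioma cells, -2.17 and -2.32 in neural stem cells, and -1.88 and -1.84 in astrocytes. Against astrocytes the glioma cells differed by -0.45 for Adam10 (limma adjusted p = 0.335), -0.22 for Adam17 (limma adjusted p = 0.634) and -0.42 for the widely expressed Adam9 (limma adjusted p = 0.34). Across all 9 arrays Adam9 ranged from 3.23 to 4.19.

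The other active ADAMs had no call in any comparison. Adam19, which processes neuregulins, gave 1.62, 0.42 and 1.83 in tissue, 1.30 and 3.13 in glioma cells, 0.43 and 2.87 in neural stem cells, and -0.09 and 2.04 in astrocytes. The second array of each cell group was the higher, and glioma cells and astrocytes overlapped at a difference of 1.24 (limma adjusted p = 0.481). Adam12, a sheddase known from muscle and placenta, gave -1.58, -1.77 and -1.64 in tissue, -1.19 and -1.22 in glioma cells, -2.64 and -0.67 in neural stem cells, and -1.01 and -0.69 in astrocytes. Adam33, known in humans as an asthma candidate gene, gave -1.96, -0.77 and -2.51 in tissue, -3.38 and -2.92 in glioma cells, -3.22 and -2.80 in neural stem cells, and -3.18 and -2.12 in astrocytes. On this probe the tissue was the highest group, 1.40 above glioma cells (limma adjusted p = 0.117), while another probe differed by -0.07 and the remaining probe was highest in astrocytes. Between glioma cells and astrocytes 2 probes of Adam12 gave differences of -0.36 and 3.59, and 2 of Adam33 gave -0.50 and 0.54. The remaining probe of each was measured in 1 of the 2 groups alone, at least 1.9-fold higher in glioma cells for Adam12 (means -4.63 and -6.79) and at least 1.76-fold lower for Adam33 (means -6.35 and -4.31). Neither gene kept 1 direction across its probes. The tested members Adam4, Adam21, Adam25 and Adam32, most of them studied in the testis, had differences between -0.99 and 1.36 in the 4 comparisons, none of them called.

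Among the 15 tested ADAMTS genes, 2 were called higher and 1 lower. Adamts17, a secreted protease whose human counterpart is mutated in a syndrome of short stature and lens defects, gave -0.61, 0.60 and 0.44 in tissue, 1.06 and 1.55 in glioma cells, -2.20 and -2.94 in neural stem cells, and -2.48 and -3.93 in astrocytes. All tumour arrays lay above all normal arrays. Against astrocytes it was 4.51 higher (SE 0.58, limma adjusted p = 0.00923), 22.8-fold, and the call was kept under all 14 alternatives run. Its second probe, measured on neither astrocyte array, was at least 3.62-fold higher (means -3.70 and -5.69).

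Adamts2, the main procollagen I N-proteinase, gave -2.57, -1.08 and -4.22 in tissue, -3.58 and -5.44 in glioma cells, -2.48 and -3.83 in neural stem cells, and 1.27 and 2.08 in astrocytes. The astrocyte arrays stood above the other 7. Glioma cells, measured on 1 of 2 arrays, differed by -6.18 (SE 0.79, limma adjusted p = 0.00912), and this call was kept under all 13 alternatives run. The second probe, measured on neither glioma cell array, was at least 1.64-fold lower (means -7.15 and -4.41).

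The other procollagen N-proteinases did not follow it. Adamts14 gave -0.68, 1.62 and 0.79 in tissue, 0.44 and 0.76 in glioma cells, -0.54 and 1.90 in neural stem cells, and 0.59 and 1.89 in astrocytes, with a difference of -0.64 between glioma cells and astrocytes (limma adjusted p = 0.637). Adamts3 gave -4.32, -5.69 and -3.16 in tissue, -7.18 and -4.02 in glioma cells, -3.61 and -3.47 in neural stem cells, and -5.98 and -7.51 in astrocytes. Its highest group was the neural stem cells, at least 4.03-fold above astrocytes, which did not measure it (means -3.54 and -6.74, limma adjusted p = 0.108).

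Adamts4, an aggrecanase that also cuts brevican and versican, had 2 probes whose differences were unlike in size. The probe that entered the fit of the cell arrays gave -5.19, 2.43 and 0.71 in tissue, 0.47 and 2.91 in glioma cells, 1.92 and 2.18 in neural stem cells, and -3.62 and -2.02 in astrocytes. The other gave -0.37, 1.86 and -0.03 in tissue, -0.64 and 1.23 in glioma cells, -0.70 and -0.00 in neural stem cells, and -1.11 and -0.34 in astrocytes. Both were higher in glioma cells than in astrocytes, by 4.5 on the first (SE 0.93, limma adjusted p = 0.0315) and by 1.02 on the other. The call was lost with the mean of both probes, with all 9 arrays fitted, where the other probe is the one used (1.02, limma adjusted p = 0.416), and in 5 of 6 fits that left out an array, all but that without glioma cell array 1, with differences between 3.28 and 5.73.

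The other aggrecanases and versicanases did not pass. Adamts5 lay 2.80 lower in glioma cells than in astrocytes (log2 difference -2.80, limma adjusted p = 0.112) and Adamts1 differed by -1.06 (limma adjusted p = 0.308). Adamts8 gave -1.25, -2.22 and -2.40 in tissue, -0.90 and -1.97 in glioma cells, -2.93 and -0.61 in neural stem cells, and 0.48 and -0.49 in astrocytes, a difference of -1.43 (limma adjusted p = 0.288) that was 0.21 on its second probe. Adamts9 gave -0.43, 1.91 and -0.04 in tissue, -0.58 and 1.05 in glioma cells, -0.46 and 1.39 in neural stem cells, and -0.54 and -0.51 in astrocytes, a difference of 0.76 (limma adjusted p = 0.528).

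Adamts7, Adamts10, Adamts16, Adamts18 and Adamts19 had no call in any comparison. Adamts7, known for cutting the cartilage protein COMP, gave -1.85, -1.98 and -1.82 in tissue, -2.62 and -0.85 in glioma cells, -0.90 and 0.72 in neural stem cells, and -3.19 and -1.35 in astrocytes. Its largest difference among the 4 comparisons was 2.18 in neural stem cells against astrocytes (limma adjusted p = 0.173). Adamts10, tied to fibrillin microfibrils, ranged from -2.59 to -0.84 over all arrays. Adamts16 gave -2.60, -3.17 and -3.14 in tissue, -4.81 and -2.47 in glioma cells, -3.72 and -5.90 in neural stem cells, and -1.42 and -2.37 in astrocytes. Astrocytes were its highest group, with a difference of -2.92 in neural stem cells (limma adjusted p = 0.118). Adamts18 gave -2.04, -3.77 and -4.73 in tissue, -4.36 and -4.48 in glioma cells, -3.24 and -4.87 in neural stem cells, and -5.14 and -5.45 in astrocytes. Its mean was highest in tissue, whose values overlapped those of glioma cells and neural stem cells. Neither astrocyte array measured it. Adamts19 gave -2.15, -3.84 and -2.76 in tissue and -6.10 and -2.59 in glioma cells, and lay between -7.63 and -6.80 in neural stem cells and astrocytes. Adamts12, Adamts13 and Adamts20 were each measured on 1 array. Adamts12 was measured in neural stem cells (array 2, -3.45), Adamts13, the von Willebrand factor protease, in tissue (array 1, -4.16), and Adamts20 in tissue (array 2, -4.91).

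**Figure D3:**
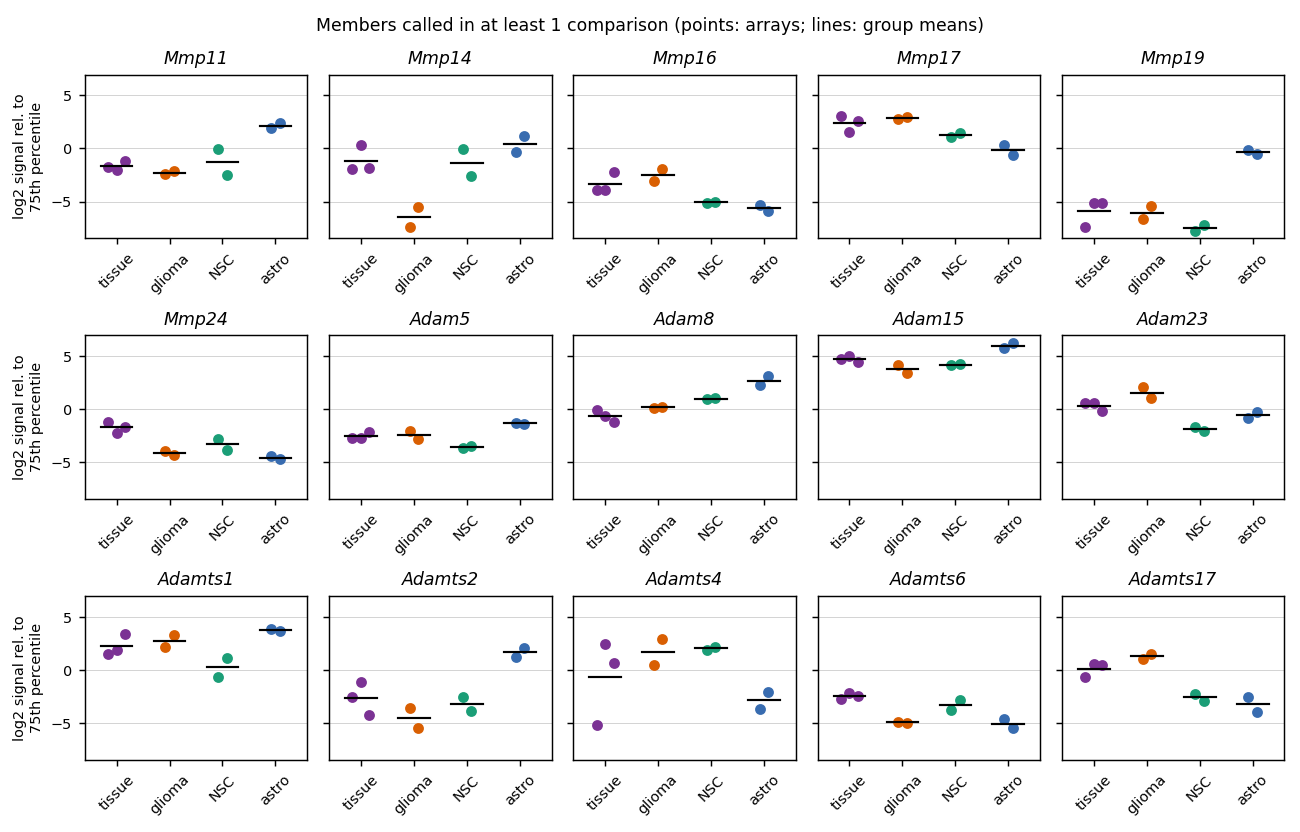
Levels of the 15 members called in at least 1 of the 4 comparisons, as log2 signal relative to the 75th percentile; points are arrays and lines group means, for EZH2-KO tissue, glioma cells, neural stem cells (NSC) and astrocytes from left to right, and for Adamts4 the probe used in the cell fit is drawn. Mmp19 and Adamts2 are high in astrocytes alone, Mmp16 and Adamts17 in both tumour groups, and Mmp14 is low in glioma cells alone.

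Because astrocyte array 2 stood apart in the mean of its fibroblast markers, the calls were also taken without it. Array 1, which remained, also had high Col1a1 (4.69) and Ogn (2.75). Adamts17, Mmp17, Adam8, Adamts2 and Mmp19 were then still called, and Mmp16, Adam23, Adamts4, Mmp14, Mmp11 and Adam15 were not, with limma adjusted p between 0.0626 and 0.0984. The log2 differences of those 6 stayed in their directions, at 2.82 for Mmp16, 2.43 for Adam23, 5.31 for Adamts4, -6.13 for Mmp14, -4.20 for Mmp11 and -1.91 for Adam15. That fit holds 1 astrocyte array, and the members called then were 2 higher and 3 lower.

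Neural stem cells were compared with astrocytes, the other normal group, whose arrays also held microglia and macrophage markers, as given above. Adamts4 was higher, and Mmp19, Adamts2, Adamts1, Adam5, Adam15 and Adam8 were lower in neural stem cells. The 1 of 42 members called higher made 2.38%, beside 6.74% of all genes, and the 6 called lower made 14.3%, beside 7.85%. The median difference was -0.44 over the members and 0.21 over all genes, and 26 of 42 members did not overlap, beside 66.3% of all genes, of which 14.6% were called in either direction. The comparison shares its astrocyte arrays with that of glioma cells against astrocytes, and 5 members were called in both.

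Mmp19 fell by 7.16 (SE 0.48, limma adjusted p = 0.00457), at least 31.7-fold, with means of -7.49 in neural stem cells and -0.33 in astrocytes, and the call was kept under all 13 alternatives. Adamts2 fell by 4.83 (SE 0.79, limma adjusted p = 0.0206). Both genes thus had their high values in the astrocyte arrays alone, and Mmp19 had entered the fit through those arrays alone.

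Adamts1, a protease of versican and aggrecan, gave 1.5, 1.85 and 3.36 in tissue, 2.18 and 3.28 in glioma cells, -0.60 and 1.13 in neural stem cells, and 3.91 and 3.68 in astrocytes. Neural stem cells were the lowest group, and Adamts1 fell by 3.53 against astrocytes (SE 0.68, limma adjusted p = 0.0314). Adam5, studied chiefly in the testis in mice, gave -2.67, -2.74 and -2.14 in tissue, -2.05 and -2.75 in glioma cells, -3.62 and -3.45 in neural stem cells, and -1.30 and -1.36 in astrocytes. It fell by 2.20 (SE 0.34, limma adjusted p = 0.0174), and its second probe was also lowest in neural stem cells, at -4.43 and -4.49.

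Adam15 differed by -1.79 (limma adjusted p = 0.0368) and Adam8 by -1.68 (limma adjusted p = 0.0401), in each case with the neural stem cell arrays close together and below both astrocyte arrays. Both calls were lost with no filter on dim probes (limma adjusted p = 0.0541 and 0.0589). Adamts4 was 4.87 higher on the first probe (SE 0.93, limma adjusted p = 0.0308) and 0.37 higher on the other, and the call was lost with their mean and with all 9 arrays fitted, where the other probe is used (limma adjusted p = 0.787). Mmp11 missed the threshold at -3.41 (limma adjusted p = 0.0501), as did Mmp3, at least 76.8-fold lower with both astrocyte arrays and at least 9.5-fold without array 2 (limma adjusted p = 0.0546 with both). With each array left out in turn, the Mmp19 call was kept and the other 6 were lost in part. Without astrocyte array 2, Mmp19 (-7.36) was the 1 member still called, and the others stood at -4.42 for Adamts2, -3.64 for Adamts1, -2.23 for Adam5, -1.53 for Adam15, -1.26 for Adam8 and 5.67 for Adamts4. Adam5, Adam15 and Adamts4 were also lost without any other array of the 2 groups, Adamts1 without array 1 of either group, Adamts2 without array 1 of the astrocytes or array 2 of the neural stem cells, and Adam8 without any other array of the fit except astrocyte array 1. The highest limma adjusted p in these fits was 0.143.

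Glioma cells and neural stem cells both had high oligodendrocyte precursor markers. Of the members, Adam23 alone was called between them, 3.46 higher in glioma cells (SE 0.44, limma adjusted p = 0.0496), 11-fold, with 2.84 and 1.88 on its other 2 tested probes. This is 1 of 42 members (2.38%), beside 0.659% of all genes, and no member was called lower, beside 0.318%. The limma test at an unadjusted p under 0.05 marked 10 of 42 members (23.8%), 7 higher and 3 lower, beside 14.5% of all genes. Mmp19, among the 7, was well above background on no array of either group. Only 3 of 14 alternatives kept the Adam23 call, and none of the 6 fits that left out an array did, with differences between 2.99 and 3.94 and limma adjusted p up to 0.159.

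Adamts17 at 3.88 (limma adjusted p = 0.0626), Mmp16 at 2.59 (limma adjusted p = 0.0858) and Mmp17 at 1.62 (limma adjusted p = 0.15) were higher in glioma cells without overlap between the groups, and did not pass. Mmp14 was lower in glioma cells at means of -6.48 and -1.36, at least 13.6-fold and 5.59-fold to 33-fold with an array left out, without passing (limma adjusted p = 0.126). Adamts6, measured on neither glioma cell array, was at least 3.05-fold lower there (limma adjusted p = 0.204). Over all members, 17 of 42 did not overlap, beside 46% of all genes, of which 0.977% were called in either direction. The median difference was -0.11 over the members and -0.05 over all genes.

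The EZH2-KO tissue was compared with the glioma cells, with which it shares its strain background. Mmp14, Adamts6 and Mmp24 were higher in the tissue and no member was lower. The 3 of 44 called higher made 6.82%, beside 7.82% of all genes, and the 0 called lower stand beside 9.11%. At an unadjusted p under 0.05 limma marked 12 of 44 members (27.3%), beside 35% of all genes. Of these 10 were higher and 2 lower, the lower ones being Adam10 (-0.67) and Adam23 (-1.24). The median difference was 0.33 over the members and -0.16 over all genes, and 21 of 44 members did not overlap, beside 55.2% of all genes, of which 16.9% were called in either direction. The groups differ in tissue against isolated cells and in slide, which cannot be told apart, and the genotype of the glioma cells is not given.

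Mmp14 was 5.31 higher in the tissue (SE 1.05, limma adjusted p = 0.0148), with means of -1.17 and -6.48, at least 15.5-fold, and 9.24-fold to 20.5-fold with an array left out. The tissue array with the highest Mmp14, array 2 at 0.33, also had the choroid plexus gene Ttr at 5.89, against -2.84 and -5.51 on the other 2. Endothelial and pericyte markers averaged -1.19 to -0.83 in the tissue and -5.26 to -5.22 in glioma cells, where 6 of 8 were well above background on neither array. Microglia markers differed likewise, as given above, and the part of these cells in the Mmp14 level was not tested. The call was lost without glioma cell array 1. It was also lost with normexp background correction, where the log2 difference was 2.02 (limma adjusted p = 0.105). That is under the bound of 15.5-fold, which holds for the main processing only.

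Adamts6, an ADAMTS with a role in mouse heart development, gave -2.75, -2.17 and -2.41 in tissue, -4.90 and -4.93 in glioma cells, -3.78 and -2.82 in neural stem cells, and -4.63 and -5.42 in astrocytes. The tissue arrays were the highest and close to each other. Adamts6 was 2.46 higher in tissue than in glioma cells (SE 0.38, limma adjusted p = 0.0062), at least 5.52-fold, with means of -2.45 and -4.91. The call was kept in all 9 fits that left out an array and lost with normexp background correction. There the log2 difference was 0.75 (limma adjusted p = 0.0949), which is under the bound of 5.52-fold, so that bound holds for the main processing only.

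Mmp24, the neural membrane-type MT5-MMP, gave -1.15, -2.27 and -1.68 in tissue, -3.88 and -4.26 in glioma cells, -2.77 and -3.85 in neural stem cells, and -4.40 and -4.68 in astrocytes. Every tissue array was above every cell array. The difference from glioma cells was 2.37 (SE 0.44, limma adjusted p = 0.0116), 5.18-fold, on this probe and 0.18 on the second, which gave -3.13, -4.05 and -4.26 in tissue and -3.28 and -4.72 in glioma cells. Neuron markers averaged 2.86 to 4.29 in tissue and -0.57 to 1.17 in glioma cells, and their part in the Mmp24 level was not tested. With the mean of the 2 probes, or without either glioma cell array, the call was lost, at a highest limma adjusted p of 0.0674.

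Several members had larger differences with a wide spread. Adam18, described in the testis, gave -3.23, 0.45 and 0.46 in tissue and -6.30 and -2.99 in glioma cells, a difference of 3.87 with overlapping groups (limma adjusted p = 0.0778). It was not well above background in neural stem cells or astrocytes. Adamts15 differed by 3.05 (limma adjusted p = 0.117) and Mmp2 by 2.51 (limma adjusted p = 0.242). The Mmp2 arrays of the 2 groups did not overlap, while the astrocyte arrays, which share the fit's estimate of the spread, lay 5.53 apart. Without astrocyte array 1 or without array 2 the difference of Mmp2 stayed at 2.51 and passed (limma adjusted p = 0.0285).

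Adam11 and Adam22 are, like Adam23, ADAMs of neurons without catalytic activity. Adam11 gave 1.56, 2.07 and 1.38 in tissue, 0.27 and -1.05 in glioma cells, -0.25 and -1.70 in neural stem cells, and -0.26 and -2.07 in astrocytes. The tissue was the highest group, 2.06 above glioma cells (limma adjusted p = 0.0765), and the second Adam11 probe differed by -0.08. Adam22 gave 2.34, 1.26 and 2.24 in tissue, 1.43 and 1.65 in glioma cells, 1.51 and 0.32 in neural stem cells, and -0.04 and 0.88 in astrocytes, with no call in any comparison. Lgi1, which encodes the secreted ligand of these receptors, was 5.16 higher in tissue than in glioma cells (limma adjusted p = 0.00503), at 0.01, -0.75 and -1.31 against -7.24 and -4.45. Of the 2 glioma cell arrays, 1 measured Lgi1.

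**Figure D4:**
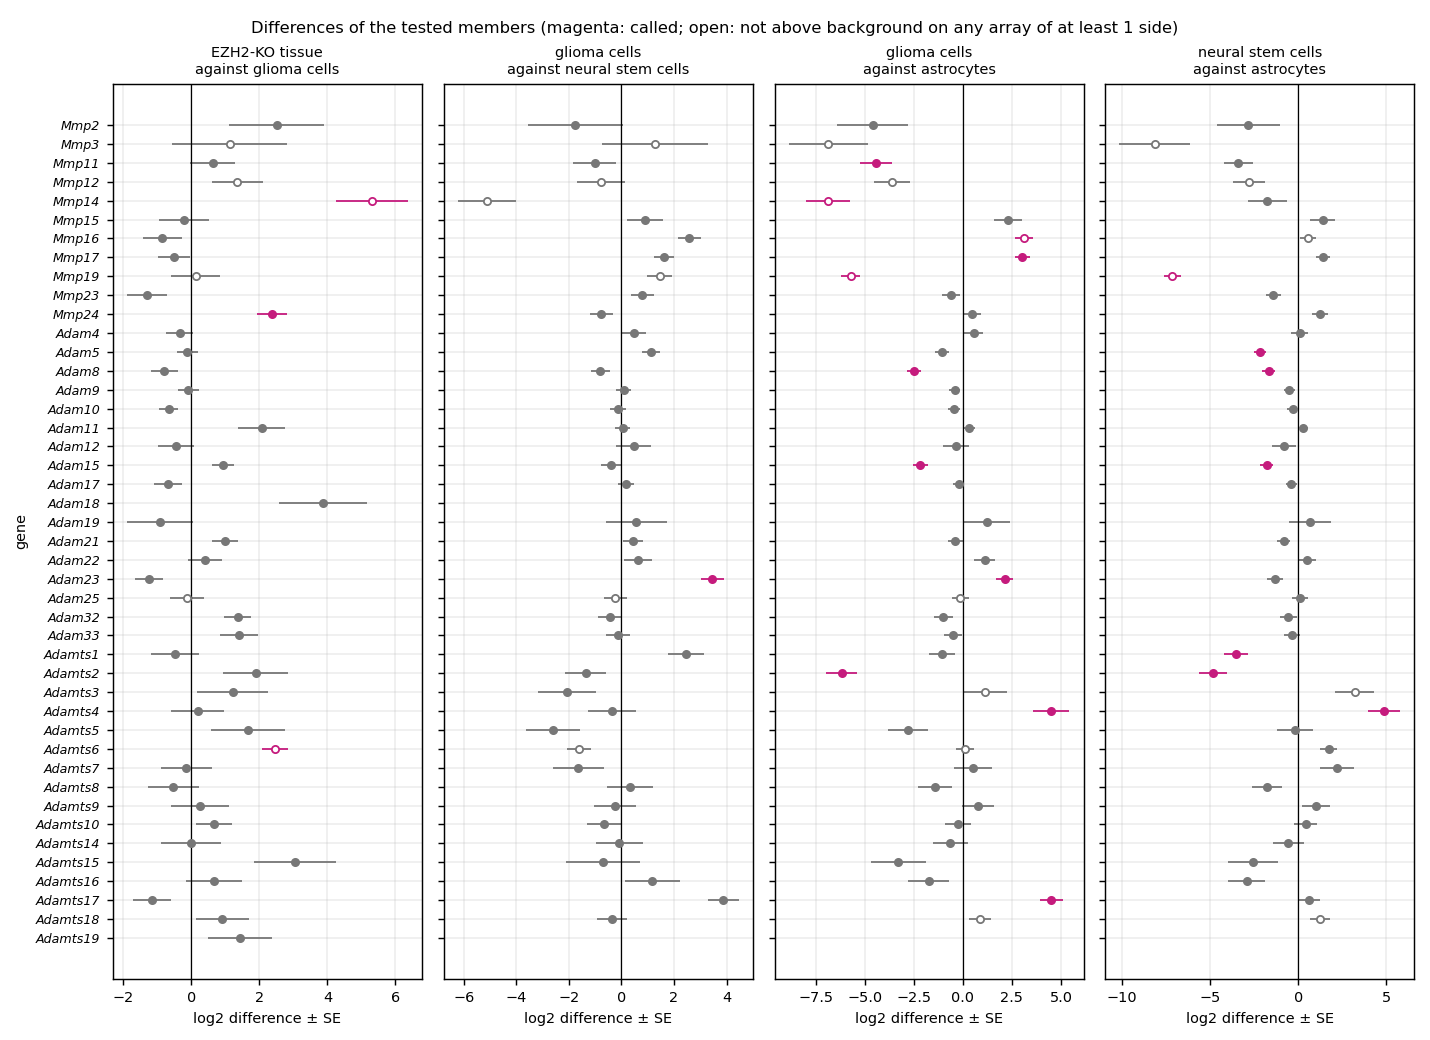
Log2 differences of the tested members in the 4 comparisons, with standard errors from limma; magenta points are called, grey points are not, and open points lie at background on every array of at least 1 side, so that their place on the axis is not a measured size. Calls lie on both sides of 0 against astrocytes, and are 3 in the tissue and 1 against neural stem cells.

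Probes limit how far a direction can be read. Of 18 members with more than 1 tested probe, the probes differed in sign for 8 in EZH2-KO tissue against glioma cells, 6 in glioma cells against neural stem cells, 4 in glioma cells against astrocytes and 4 in neural stem cells against astrocytes. Among called genes with more than 1 probe, no call had probes of opposite sign.

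Levels also varied within groups. Of members above background on at least 1 array of the group, 13 of 43 (30.2%) had a range over 2 on the log2 scale, 4-fold, among the 3 tissue arrays, beside 7.88% of all genes. The shares were 5 of 38 (13.2%) in glioma cells, beside 6.16%, 6 of 39 (15.4%) in neural stem cells, beside 6.32%, and 5 of 39 (12.8%) in astrocytes, beside 5.48%. The ranges include arrays on which a probe was not well above background. Members and all genes were not matched for level. The aggrecanase Adamts5 was among the variable ones, at -3.0, -3.55 and -0.56 in tissue, -5.41 and -2.64 in glioma cells, -0.62 and -2.21 in neural stem cells, and -1.46 and -0.98 in astrocytes.

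By group mean, 21 of the 44 members tested in the fit of 9 arrays were highest in astrocytes, 13 in EZH2-KO tissue, 7 in glioma cells and 3 in neural stem cells. Over all 25398 genes these shares were 27.4% in astrocytes, 19.1% in tissue, 25.8% in glioma cells and 27.7% in neural stem cells. Of the 11 Mmp genes, 7 were highest in astrocytes, 3 in glioma cells (Mmp15, Mmp16 and Mmp17), 1 in tissue (Mmp24) and 0 in neural stem cells. The values of Mmp15, Mmp16 and Mmp17 overlapped between glioma cells and tissue. These 3 are membrane-type, as are Mmp24 and Mmp14, and Mmp14 was lowest in glioma cells. This order of means is a description with no test. A member was counted only where all arrays of some group measured it. Mmp3, Mmp12 and Mmp19 entered through the astrocytes alone, and Adam18 and Adamts19 through the tissue alone. Adam25 and Adamts3 entered through the neural stem cells alone. For these members the highest group was tied to the filter.

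Genes outside the families that regulate them, bind them or serve as their substrates were taken from a list of 27. Of the 6 inhibitors, 3 were called lower in glioma cells than in astrocytes and 0 higher, beside 9.84% and 9% of all genes. Timp1 gave -3.1 and -3.30 in glioma cells and 3.17 and 5.99 in astrocytes, a difference of -7.78 (limma adjusted p = 0.00944). Timp2, which inhibits MMPs and also takes part in Mmp2 activation with Mmp14, differed by -2.58 (limma adjusted p = 0.0176). The broad protease inhibitor A2m gave -7.34 and -7.13 in glioma cells, not well above background, and 2.09 and -2.59 in astrocytes. It was at least 29.3-fold lower (limma adjusted p = 0.0356), 5.78-fold without astrocyte array 1 and 149-fold without array 2. In neural stem cells against astrocytes Timp1 (-5.77) and Timp2 (-3.53) were the 2 called lower, with limma adjusted p of 0.0245 and 0.0104. Timp4 was the 1 inhibitor called in EZH2-KO tissue against glioma cells, at 3.03, 3.44 and 3.6 against 1.31 and 1.15 (limma adjusted p = 0.00391).

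Of 12 activators and partners, 3 were called lower in glioma cells than in astrocytes, beside the same 9.84%. These were Plau, the urokinase gene, at least 2.95-fold and 1.8-fold to 4.85-fold with an array left out (means -7.29 and -3.56, limma adjusted p = 0.0189), Plat, the tissue plasminogen activator gene, at -2.77 (limma adjusted p = 0.00677), and Rhbdf1, a rhomboid-like partner of Adam17, at -1.85 (limma adjusted p = 0.0321). Plau was the 1 called lower in neural stem cells against astrocytes, at least 3.37-fold and 2.05-fold to 5.53-fold with an array left out (means -6.61 and -3.56, limma adjusted p = 0.0367). In EZH2-KO tissue against glioma cells, Plaur, the receptor gene of Plau (3.82, limma adjusted p = 0.0321), and the endocytic receptor gene Lrp1 (1.72, limma adjusted p = 0.047) were higher. Plau passed too (limma adjusted p = 0.0489), but it was measured on 1 of 3 tissue arrays (-5.25, -3.16 and -5.37) and on neither glioma cell array, and its bound of 1.45-fold lies under the 2-fold of a call. Tspan14, a tetraspanin partner of Adam10, was lower (-1.20, limma adjusted p = 0.0267).

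Among 4 lectican substrates, brevican (Bcan) alone was called, 2.66 higher in glioma cells than in astrocytes (limma adjusted p = 0.0402), at 7.72 and 8.16 against 6.06 and 4.51. The last list held 5 glycoproteins, of which Lgi1 is a ligand and the others are substrates. Cspg4, the NG2 proteoglycan of oligodendrocyte precursors, is a substrate of Adam10. It was higher in glioma cells (6.07, limma adjusted p = 0.00697) and in neural stem cells (3.30, limma adjusted p = 0.037), each against astrocytes. Lgi1 was the 1 called in the tissue. None of the 27 was called in glioma cells against neural stem cells in limma.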

How the data were processed

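Probe intensity values were taken from the scanner files as the authors deposited them. Per the file headers, Agilent Feature Extraction made the processed signals, version 10.7.3.1 for the EZH2-KO tissue arrays and 10.7.1.1 for the cell arrays; the submitters' processing notes name 10.7.3.1. The authors also deposited a table of log2 values, in which 99.01% to 99.81% of an array's values differed by at most 0.01 from the log2 processed signal, so it is not scaled between arrays; it served as an alternative. The number of arrays limits the precision.

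Control and outlier spots were left out, spots of a probe averaged, log2 signals scaled to each array's 75th percentile, and each gene taken by the brightest of its probes that all arrays of some group measured. limma 3.58.1 (R 4.3.3) was fitted to the 6 cell arrays (3 residual degrees of freedom) for comparisons among cells and to all 9 arrays (5) for the tissue, with Benjamini-Hochberg adjustment over all genes tested. In simulated data 200 genes were changed, fewer than were called in any comparison of the real data, so the rates need not hold there. Of 100 genes changed by 3 on the log2 scale, the cell fits recovered 41% to 49% and the tissue fit 69%. Of 100 changed by 6, they recovered 80% to 81% and 94%.

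Named members are all called ones and a set chosen by role; members and lists were chosen with earlier results of these data known. Replicate numbers shared between groups were not treated as pairs in the main fits. The correlations of deviations were -0.01, 0.07 and 0.16, and as values over the whole array they cannot exclude a shared effect on some genes. The alternatives covered background correction, scaling, filters, probes, arrays fitted, a replicate block and each array left out. Probe coordinates are in mm9 as in the scanner files, and promoter windows come from RefSeq (GRCm38.p6).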

Additional observations from a re-analysis of the deposited data

How the results depend on the processing

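Counts of called members moved as follows. Against astrocytes each main fit called 6 lower, and other settings reached 8 in glioma cells and 9 in neural stem cells. In glioma cells against astrocytes, 3 were higher with the mean of the tested probes and 3 lower where every array had to be above background, and leaving out each array gave 2 to 4 higher and 3 to 6 lower. In glioma cells against neural stem cells, 2 were higher with normexp correction and with all 9 arrays fitted, and 0 with quantile normalization, the deposited table, both other filters on dim probes, or any array left out. In neural stem cells against astrocytes, 0 were higher with the mean of the probes, and leaving out arrays gave 0 to 2 higher and 1 to 5 lower. In EZH2-KO tissue against glioma cells, 1 was higher with normexp, 7 with the deposited table and 6 with the tissue and glioma cell arrays fitted alone, and leaving out arrays gave 1 to 4. With the replicate number as a block, 0 members were higher in glioma cells against neural stem cells and 2 in neural stem cells against astrocytes, where Adam15 (limma adjusted p = 0.0627) and Adam8 (limma adjusted p = 0.0511) were lost. The cause of these moves was not tested. No difference of a called member changed sign.

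The unscaled deposited table moved the median of all genes by -0.44 in glioma cells against astrocytes, -0.41 in neural stem cells against astrocytes and 0.54 in the tissue against glioma cells, and the share of calls that were higher to 30%, 24.1% and 79.6%, against 47.8%, 46.2% and 46.2%. normexp used median spot signals for the fit of 9 arrays, since mean signals were not given for the tissue. Slide and scan could not be fitted as a block, since tissue and cells lay on separate slides. Signals under background limit Mmp14, Mmp16, Mmp19 and Adamts6 to bounds, which were taken in the main processing alone. Over all genes, calls higher and lower were 1987 and 2314 in the tissue against glioma cells, 2238 and 2447 in glioma cells against astrocytes, 164 and 79 in glioma cells against neural stem cells, and 1675 and 1953 in neural stem cells against astrocytes. With an array left out, these ranged over 957 to 2049 and 759 to 2627, 747 to 2541 and 1195 to 2342, 0 to 104 and 0 to 74, and 389 to 1264 and 756 to 1692, in the same order of comparisons. Requiring every array above background gave 914 and 1856, 1977 and 1464, 46 and 22, and 1561 and 1127. The deposited table gave 2981 and 762 in the tissue, 1206 and 2808 in glioma cells against astrocytes, and 649 and 2041 in neural stem cells against astrocytes. The replicate block gave 1482 and 1118 in the tissue and 5 and 0 in glioma cells against neural stem cells, and normexp 1234 and 1890 in the tissue. No filter gave 88 and 41 in glioma cells against neural stem cells. With all 9 arrays, 257 and 229 were called in glioma cells against neural stem cells, and 2746 and 2564 in neural stem cells against astrocytes.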
